A study of Drosophila melanogaster with 12 samples.

Results

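Pentylenetetrazole (PTZ) alone at day 7 was set against day 2 in heads of the fruit fly *Drosophila melanogaster*, using 8 of the study's 12 arrays. The 7 d group (4 arrays) came from flies fed PTZ together with levetiracetam (LEV) for 4 days and then PTZ without LEV for 3 days. The 2 d group (4 arrays) came from flies still on both drugs. Each array compared head RNA of drug-fed flies with head RNA of flies kept on normal food in a parallel set, so every value is a log2 ratio between drug-fed and control flies of that time, whose direction is taken up below. All flies were unmated Oregon-R males, labelled 3 to 4 days old, although a further 10 to 11 days of maintenance after collection stand in the growth protocol. Drug food held PTZ at 8 mg/ml and LEV, where present, at 5 mg/ml, and vials held 30 flies. Heads were pooled, and per the labels the arrays of one time are biological replicates. One sentence of the design text names LEV as the food after day 4, whereas the treatment protocols of all 4 samples of 7 d name PTZ, which was the reading used. Between the times, the loss of LEV, the longer LEV feeding before it, the longer exposure to PTZ and the flies' age changed together and cannot be told apart.

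PTZ is a convulsant that blocks GABA-gated chloride channels and so removes fast inhibition in the brain. LEV is an antiepileptic drug whose main target in mammals is the synaptic vesicle protein SV2A. A head holds brain, eyes, fat body and muscle, so the ratios average over neurons, photoreceptors, glia and metabolic tissue, and in such bulk samples fewer cells of a type and less RNA per cell cannot be told apart.

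No gene passed the test between 7 d and 2 d. A probe was tested when it had a value on at least 3 of the 4 arrays of both groups, which 688 of the 13824 probes had. Only 43 of these 688 probes (6.25%) carried a single gene symbol, against 7558 probes (54.7%) on the whole array, and these 43 are the tested genes. The other 645 tested probes had several symbols or none in the platform annotation and are not named. Of the tested probes, 464 had a value on all 8 arrays, and 10 of those were tested genes.

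The ratios were read in both possible directions, because the direction of the deposited values is not stated. The drug-fed sample was labelled with Cy5 in replicates 1 and 2 of each time and with Cy3 in replicates 3 and 4. In the turned reading, deposited values were taken as Cy5 over Cy3 and the sign of replicates 3 and 4 was reversed. In the deposited reading, every value was taken as drug-fed over control. The values below are from the turned reading, after each array was centred on its median, unless the deposited reading is named. Replicates 1 and 2 are the same in both.

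In the turned reading, limma called 0 of 688 probes (0%) at an adjusted p under 0.05, with 0.97 as the smallest adjusted p. At an unadjusted p under 0.05 there were 15 probes, where 34.4 would be expected without any difference. As deposited the count was again 0 of 688 (0%), with 39 probes at an unadjusted p under 0.05 and a smallest adjusted p of 0.651. Replicates 1 and 2 of both times, which do not depend on the reading, gave 0 of 590 probes (0%) by limma, with 31 at an unadjusted p under 0.05 and a smallest adjusted p of 0.861. The adjusted p of the tested genes lay between 0.97 and 0.988 in the turned reading and between 0.863 and 0.988 in the deposited one. Every SE of a difference given here is limma's moderated one, in which a gene's own variance is drawn towards a value set by all probes fitted. Differences of the 43 genes had a median standard error of 0.55 log2 units in the turned fit and of 0.41 when the genes were fitted without the other probes. In that genes-only fit by limma, 0 of 43 genes passed, 5 had an unadjusted p under 0.05 where 2.15 would be expected without any difference, and the smallest adjusted p was 0.414. As deposited, the genes-only fit gave 0 of 43, with 4 at an unadjusted p under 0.05 and a smallest adjusted p of 0.492. Centred on these genes in place of all probes, the genes-only limma fit had 2 at an unadjusted p under 0.05 turned and 4 as deposited. The genes share their arrays, so these counts are not of independent tests.

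Although none passed, the differences of the tested genes lay to one side in the turned reading. The 7 d minus 2 d difference was above 0 for 42 of 43 genes, with a median of 0.45, whereas 56.5% of all tested probes were above 0 and the other probes had a median of 0.08. As deposited, 14 of 43 genes were above 0, with a median of -0.13, beside 40.3% of all tested probes. On replicates 1 and 2 alone, 25 of the 30 tested genes with a value on all 4 arrays were above 0, with a median of 0.22, beside 47.6% of all tested probes. Replicates 3 and 4 alone, turned, had 21 of 21 such genes above 0, with a median of 0.69, beside 59.4% of all tested probes. As deposited, the signs on replicates 3 and 4 are the opposite. With arrays centred on the tested genes in place of all probes, 19 of 43 genes were above 0 in the turned reading and 25 of 43 in the deposited one. That centring sets the median of these genes to 0 on every array, so it removes any shared direction and cannot test it. The turned count was 43 with centring on probes measured on all 8 arrays, 40 with centring on probes with 1 symbol and 36 without centring. Without 2 d replicate 2 the turned median was 0.25, without 7 d replicate 3 or 4 it was 0.29, and without centring it was 0.24. The genes' common direction thus depended on the reading, and its size on the arrays used and on the centring. Centred on the tested genes, the turned differences were 0.73 for *Gbs-70E*, 0.64 for *CG9445* and 0.38 for *BomT2*. They were 0.32 for *TrxT*, 0.29 for *Sfxn1-3*, 0.28 for *CG14989*, 0.17 for *Sesn*, 0.14 for *RpL27* and *CG10019* and 0.07 for *eIF3f1*, and each was smaller than with centring on all probes.

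The per-array medians show where the common offset lay. In replicates 1 to 4, the median log2 ratio of the tested genes was -0.02, -0.17, 0.78 and 0.76 at 7 d, against -0.0045, -0.62, 0.16 and 0.01 at 2 d. Both 7 d arrays with the drug-fed sample in Cy3 stood above the rest, and replicate 2 of 2 d stood below. For the other tested probes the medians were 0.06, 0.14, 0.15 and -0.24 at 7 d, against -0.0035, 0.70, -0.15 and -0.10 at 2 d. In the deposited reading the 7 d medians of the genes in replicates 3 and 4 were -0.78 and -0.76, so those arrays were the lowest of the 8. The part of the dye, of the array and of the flies in this offset was not tested.

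**Figure D1:**
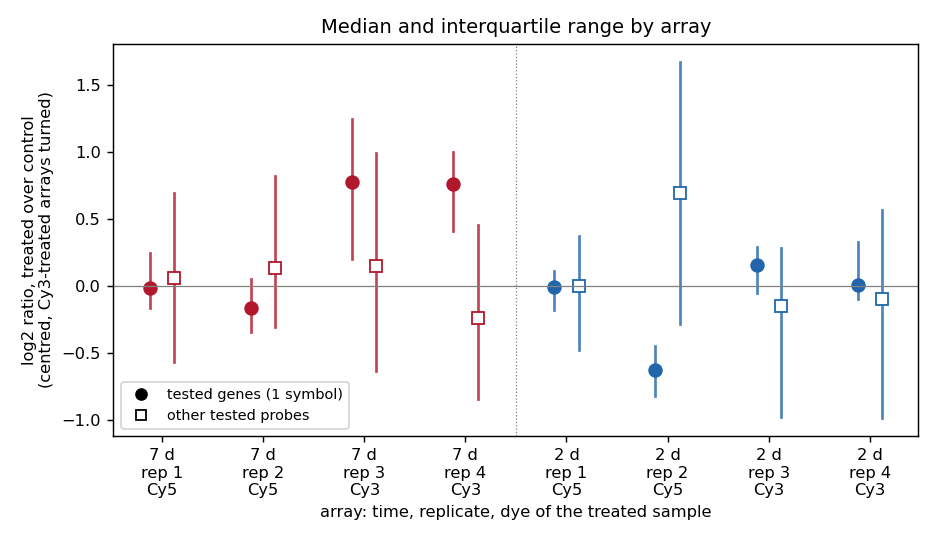
Median (symbol) and interquartile range (line) of centred log2 ratios of drug-fed over control flies, per array, for the tested genes (filled circles) and the other tested probes (open squares), with arrays of drug-fed flies in Cy3 turned. The gene medians of 7 d replicates 3 and 4, at 0.78 and 0.76, stand above all other arrays, and 2 d replicate 2, at -0.62, stands below them.

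Measurement quality differed between the arrays and between the probe classes. Of 27648 spots, 1394, 2165, 2730 and 14042 had a value on the 7 d arrays and 2017, 2020, 1868 and 1434 on the 2 d arrays. Deposited array medians before centring were -0.67, -0.63, 0.74 and -0.55 at 7 d and -0.20, -0.44, -0.08 and -0.17 at 2 d. The 2 adjacent spots of a probe with a single symbol correlated at a Pearson r of 0.267 to 0.804 over the 8 arrays, and those of the other probes at 0.0732 to 0.488. The tested genes also had the narrower spread, with a median absolute deviation of 0.135 to 0.527 per array against 0.446 to 0.983 for the other tested probes.

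*BomT2*, the single tested gene of 27 immune genes on the array, encodes a bomanin, one of the secreted peptides that Toll signalling induces. Its log2 ratios at 7 d were 0.31, 0.77 and 1.39 in replicates 2, 3 and 4, with no value in replicate 1, against 0.04, -0.49, -0.14 and 0.06 in replicates 1 to 4 of 2 d. All 7 d arrays were above all 2 d arrays. The difference was 0.95 ± 0.53 (SE, n = 3 and 4 arrays) on the log2 scale and did not pass in limma (adjusted p = 0.97). The *BomT2* difference was -0.52 as deposited and the groups overlapped.

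*Sesn* encodes sestrin, a stress-induced protein that restrains TOR signalling. *Sesn* had log2 ratios of 0.25, 0.27, 0.42 and 0.96 in replicates 1 to 4 of 7 d, against 0.07, -0.51 and -0.15 in replicates 1 to 3 of 2 d. The *Sesn* groups did not overlap, and the difference was 0.67 ± 0.51 (SE, n = 4 and 3 arrays). *TrxT*, a thioredoxin named for its expression in testis, had 0.48, 0.10, 0.61 and 1.40 at 7 d against 0.20, -0.85, 0.22 and -0.08 at 2 d. The *TrxT* groups overlapped through 7 d replicate 2, and its difference was 0.78 ± 0.51 (SE, n = 4 arrays each). On replicates 1 and 2 alone the differences were 0.48 ± 0.85 (SE, n = 2 arrays each) for *Sesn* and 0.62 ± 0.89 for *TrxT*. They were -0.12 as deposited for *Sesn* and -0.16 for *TrxT*. Thus neither member of the thioredoxin and sestrin list that could be tested, of 10 on the array, passed in limma in either reading. *jdp*, which encodes a J-domain protein of the cochaperone type, had -0.71, -0.45, 1.17 and 1.15 at 7 d against 0.01, -0.98, -0.08 and -0.11 at 2 d. For *jdp* the 2 dye orientations of 7 d lay on opposite sides of 0 in the turned reading only. As deposited, the 7 d values of *jdp* were -0.71, -0.45, -1.17 and -1.15, all below 0. Its difference was 0.58 ± 0.61 turned and -0.67 ± 0.44 as deposited (SE, n = 4 arrays each).

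Genes of carbohydrate metabolism formed the list with the most tested members, 4 of the 20 on the array for glycolysis, the pentose phosphate pathway and glycogen. None of the 4 passed in limma, and their median difference was 0.57 in the turned reading (4 of 4 above 0), 0.09 in the deposited reading (3 of 4) and 0.27 on replicates 1 and 2 for the 3 measured there. With arrays centred on the tested genes it was 0.03 in the turned reading. *Gbs-70E* encodes a subunit that targets protein phosphatase 1 to glycogen, and it had the largest difference of the 43 genes in the turned reading. *Gbs-70E* had log2 ratios of 0.04, 0.06 and 1.15 in replicates 1, 2 and 4 of 7 d, with no value in replicate 3, against -1.04, -1.42, -0.22 and 0.21 in replicates 1 to 4 of 2 d. The 2 lowest values were the 2 d arrays with the drug-fed sample in Cy5. The difference was 1.04 ± 0.63 (SE, n = 3 and 4 arrays; limma adjusted p = 0.97) turned and 0.26 ± 0.60 as deposited, and on replicates 1 and 2 alone it was 1.28 ± 0.84 (SE, n = 2 arrays each; limma adjusted p = 0.861).

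The other members of the carbohydrate list were enzymes of glycolysis and its side branch to glycerol phosphate. *Ald1*, the aldolase, had -0.01, -0.30, 1.08 and 0.73 at 7 d against -0.0045, -0.75 and 0.12 in replicates 1 to 3 of 2 d. *Gapdh1*, a glyceraldehyde-3-phosphate dehydrogenase, had 0.35, -0.41, 0.08 and 0.26 at 7 d against 0.12, -0.72 and -0.25 in replicates 1 to 3 of 2 d. *Gpdh1*, the glycerol-3-phosphate dehydrogenase, had -0.32, 1.47 and -0.12 in replicates 2 to 4 of 7 d against -0.83, -1.01, 0.38 and 0.65 at 2 d. In each of the 3 enzymes the groups overlapped. Their differences were 0.59 ± 0.58 for *Ald1*, 0.36 ± 0.52 for *Gapdh1* and 0.55 ± 0.71 for *Gpdh1* (SE), and without 7 d replicate 3 the *Gpdh1* difference was -0.02. As deposited, the differences were -0.24 for *Ald1*, 0.01 for *Gapdh1* and 0.16 for *Gpdh1*.

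*ND-B17.2* and *Mpcp2* were single tested members of their lists, and *Sfxn1-3*, named for its small p, was in no list. *Sfxn1-3* encodes a sideroflexin, a carrier of the inner mitochondrial membrane. *Sfxn1-3* had -0.09, 0.99, 1.21 and 0.82 at 7 d against -0.13, -0.57, 0.03 and 0.62 at 2 d, with 7 d replicate 1 inside the 2 d range. Its difference was 0.75 ± 0.51 turned and 0.05 ± 0.55 as deposited (SE, n = 4 arrays each). *ND-B17.2*, an accessory subunit of complex I, had -0.15, 0.21 and 1.01 in replicates 2 to 4 of 7 d against 0.04, -0.45, -0.20 and 0.01 at 2 d. It was the single tested gene of 40 oxidative phosphorylation genes on the array, with a difference of 0.51 ± 0.53 turned and -0.40 ± 0.47 as deposited (SE). *Mpcp2*, the mitochondrial phosphate carrier, had 0.53, -0.31, 0.20 and 0.27 at 7 d against 0.18, -0.31, 0.01 and -0.21 at 2 d. The *Mpcp2* difference, 0.26 ± 0.44, was among the smaller ones and its groups overlapped.

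Genes of protein synthesis were tested through 2 ribosomal proteins and 3 translation factors. *RpL27*, a protein of the large cytosolic ribosomal subunit and the single tested gene of 25 on the array, had 0.46, 0.69 and 0.62 in replicates 2 to 4 of 7 d against 0.18, -0.44, -0.04 and -0.19 at 2 d. All its 7 d arrays were above all 2 d arrays, with the narrowest 7 d spread of the 43 genes (SD 0.12, n = 3 arrays) and a 2 d SD of 0.26 (n = 4 arrays). The *RpL27* difference was 0.71 ± 0.49 turned and -0.27 ± 0.50 as deposited (moderated SE). That SE draws on the variance of all probes fitted and does not measure the scatter of this gene's own arrays. *mRpS34*, of the small mitochondrial ribosomal subunit, had -0.29, 0.13 and 0.05 in replicates 1, 3 and 4 of 7 d against -0.997, -0.79 and 1.10 in replicates 1 to 3 of 2 d in the turned reading, a difference of 0.19 ± 0.74. In the deposited reading *mRpS34* had -0.29, -0.13 and -0.05 in replicates 1, 3 and 4 of 7 d against -0.997, -0.79 and -1.10 in replicates 1 to 3 of 2 d. There its groups did not overlap, and the difference of 0.80 ± 0.48 was the largest positive one of the 43 genes in that reading, though limma did not call it.

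Translation factors gave 3 tested genes of 30 on the array, none of which passed, with a median difference of 0.20 turned (3 of 3 above 0) and -0.32 as deposited (1 of 3). *eIF3f1*, a subunit of initiation factor 3, had -0.07, 1.30 and 0.40 in replicates 1, 3 and 4 of 7 d against -0.12, -0.72, 0.19 and 0.05 at 2 d. Its difference was 0.70 ± 0.57 (SE, n = 3 and 4 arrays). *eIF4G1*, the scaffold of the cap-binding complex, had -0.22, -0.01 and 0.57 in replicates 1, 2 and 4 of 7 d against 0.01, -0.56 and 0.30 in replicates 1 to 3 of 2 d, a difference of 0.20 ± 0.60. *eEF5*, the hypusine-bearing elongation factor, had -0.34, 0.09 and 0.69 in replicates 2 to 4 of 7 d against 0.13, 0.10, 0.20 and -0.17 at 2 d, a difference of 0.08 ± 0.51. In all 3 factors the groups overlapped.

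Genes of the eye, of transmitter handling and of detoxification were each tested through 1 or 2 members. *rdgC*, the rhodopsin phosphatase of photoreceptors, had -0.74, -0.50, 1.79 and 0.80 at 7 d against -0.15, -0.96 and 0.26 in replicates 1 to 3 of 2 d. The 7 d values of *rdgC* were split by dye in the turned reading only. As deposited, the 7 d values of *rdgC* were -0.74, -0.50, -1.79 and -0.80, all below 0. Its difference was 0.62 ± 0.76 turned and -0.50 ± 0.52 as deposited (SE, n = 4 and 3 arrays). *Eaat2*, a transporter of acidic amino acids, had -0.28, -0.26, 1.62 and 0.19 at 7 d against -0.30, -0.67, 0.38 and 0.11 at 2 d. The *Eaat2* difference of 0.44 ± 0.58 came to 0.0025 without 7 d replicate 3. Among 73 cytochrome P450 genes on the array, *Cyp28d1* and *Cyp313a1* were tested. *Cyp28d1* had -0.04, 1.42 and 0.84 in replicates 2 to 4 of 7 d against 0.28, 0.02, 0.61 and 0.91 at 2 d, a difference of 0.29 ± 0.57. *Cyp313a1* had -0.65, 0.55 and -0.22 in replicates 2 to 4 of 7 d against -0.64, -1.27, 0.48 and -0.18 at 2 d, a difference of 0.30 ± 0.62. Both P450 genes overlapped between the times in both readings.

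**Figure D2:**
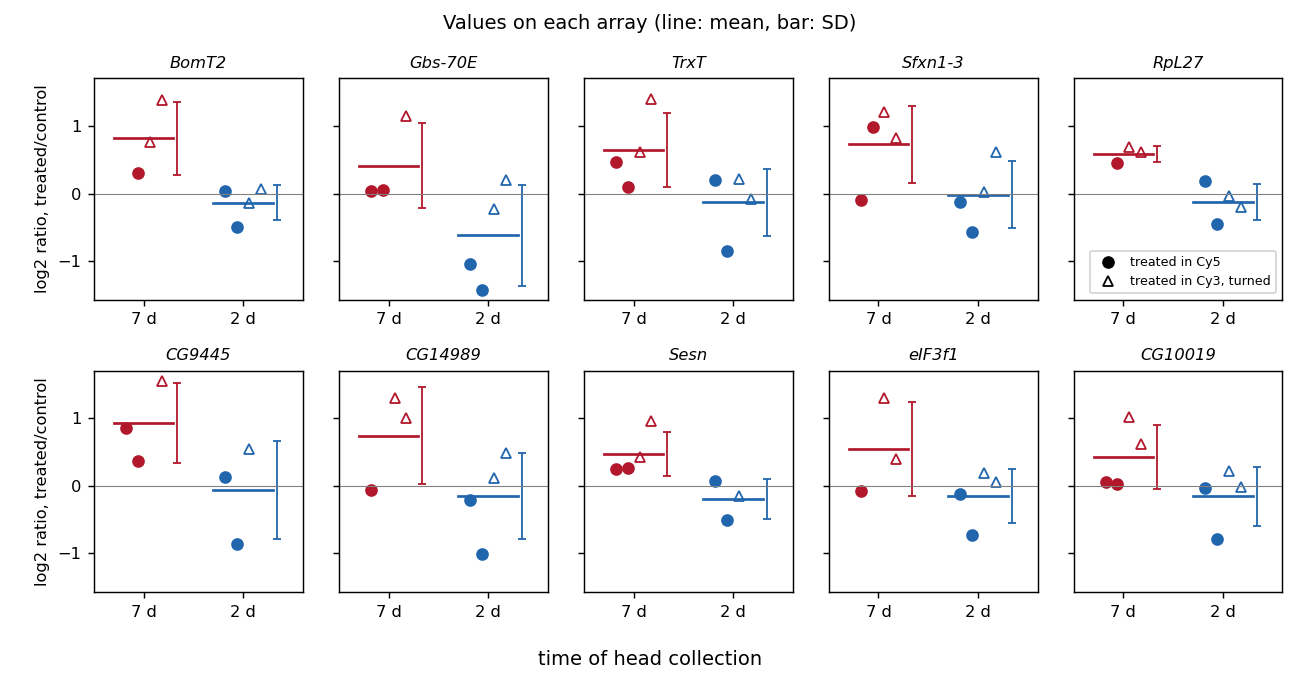
Centred log2 ratios of drug-fed over control flies on each array for the 10 tested genes of smallest p among those with a difference above 0, at 7 d (left) and 2 d (right). Circles are arrays with the drug-fed sample in Cy5, triangles those with it in Cy3 after turning, lines means and bars SDs. *BomT2*, *RpL27* and *Sesn* have no overlap between the times.

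For the other 3 genes of that plot no role is given here. *CG9445* had 0.86, 0.37 and 1.56 in replicates 1, 2 and 4 of 7 d against 0.13, -0.87 and 0.55 in replicates 1 to 3 of 2 d, a difference of 0.99 ± 0.67 (SE, n = 3 arrays each). *CG14989* had -0.07, 1.30 and 1.00 in replicates 1, 3 and 4 of 7 d against -0.21, -1.01, 0.12 and 0.48 at 2 d, a difference of 0.90 ± 0.62. *CG10019* had 0.06, 0.03, 1.02 and 0.62 at 7 d against -0.04, -0.79, 0.22 and -0.02 at 2 d, a difference of 0.59 ± 0.49. In all 3 the groups overlapped. As deposited, the differences were 0.32 for *CG9445*, -0.33 for *CG14989* and -0.13 for *CG10019*.

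The groups lay apart for few genes. Every 7 d array was above every 2 d array for 3 of 43 genes in the turned reading, beside 2.18% of all tested probes, and below for 0 genes, beside 0.581%. In the deposited reading 1 gene was above, beside 1.74%, and 2 were below, beside 3.49%. The 2 below were *Doa* and *CG10077*, and *CG10077* lay outside the naming rule and was named after its values were seen. *Doa*, a LAMMER kinase that acts on splicing factors, had -0.16, -0.30, -0.80 and -0.999 in replicates 1 to 4 of 7 d against 0.14, -0.05, 0.02 and 0.12 at 2 d as deposited. Its difference was -0.62 ± 0.40 as deposited and 0.35 ± 0.49 turned (SE, n = 4 arrays each). No gene had groups apart in the same direction in both readings.

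**Figure D3:**
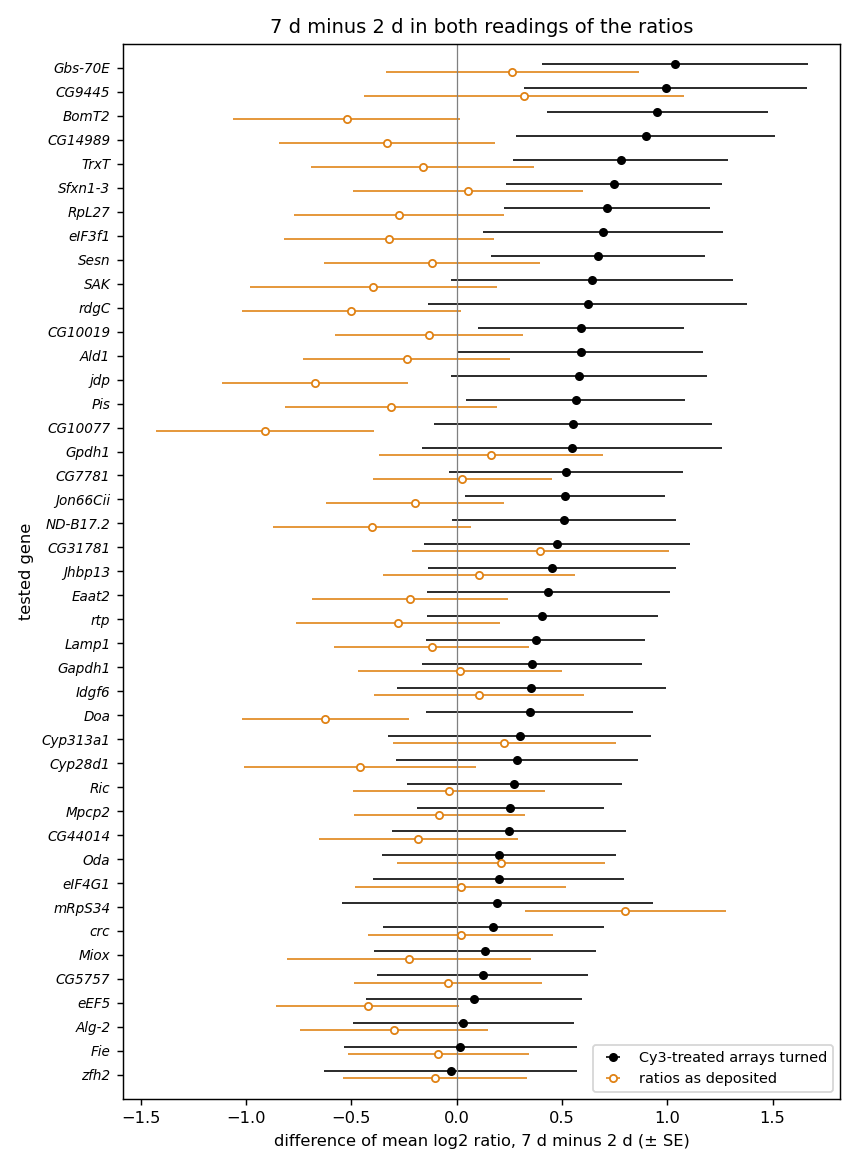
Difference of mean log2 ratio, 7 d minus 2 d, with its moderated SE, for each of the 43 tested genes in the turned reading (filled) and the deposited reading (open), ordered by the turned difference. In the turned reading 42 lie above 0, and in the deposited reading 14 do.

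Replicates 1 and 2 give differences whose direction does not depend on the reading, and 5 of the 30 tested genes lay below 0 there. These were *Alg-2*, a calcium-binding protein, at -0.33 ± 0.85, *Doa* at -0.28 ± 0.84, *Miox*, the myo-inositol oxygenase, at -0.18 ± 0.86, *jdp* at -0.09 ± 0.88 and *rdgC* at -0.06 ± 0.87 (SE, n = 2 arrays each). Among the 5 highest, *Gbs-70E*, *CG9445*, *Sfxn1-3* and *TrxT* recurred from the fit of all 8 arrays, of which these 4 arrays are a part. The fifth, *CG31781*, had 0.91, 0.18, -0.73 and 1.14 in replicates 1 to 4 of 7 d against 0.09, -0.58 and 0.19 in replicates 1 to 3 of 2 d. *CG31781* differed by 0.79 ± 0.88 on replicates 1 and 2 and by 0.48 ± 0.63 over all arrays. The moderated SE exceeded the difference in all of these genes but *Gbs-70E* and *CG9445*. It lay between 0.84 and 0.89 for all of them on replicates 1 and 2. This SE draws on the variance of all probes fitted and does not measure the scatter of each gene's own arrays.

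The 2 dye orientations were then set against each other, over the 464 probes with a value on all 8 arrays. The 7 d minus 2 d differences of replicates 1 and 2 and those of replicates 3 and 4, turned, had a Pearson r of -0.115 across probes, which are not independent and share the arrays. They had the same sign for 230 of 464 probes (49.6%) in the turned reading and for 234 in the deposited one. Among the 10 genes, 8 had the same sign when turned and 2 as deposited, with a Pearson r of -0.458 when turned and median differences of 0.39 on replicates 1 and 2 and 0.70 on replicates 3 and 4. Over all tested probes, arrays of opposite dye orientation correlated, as deposited, at a mean r of 0.0491 within 7 d and 0.201 within 2 d, and at 0.0951 between the times. Arrays of the same orientation correlated at a mean r of 0.117 within 7 d, 0.125 within 2 d and 0.118 between the times. Over the tested genes alone, the mean r of the same orientation was 0.194 within 7 d, 0.587 within 2 d and 0.211 between the times. For opposite orientations it was 0.0278, 0.224 and 0.0298, and single pairs of arrays ranged from -0.351 to 0.722. These correlations do not settle the reading.

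**Figure D4:**
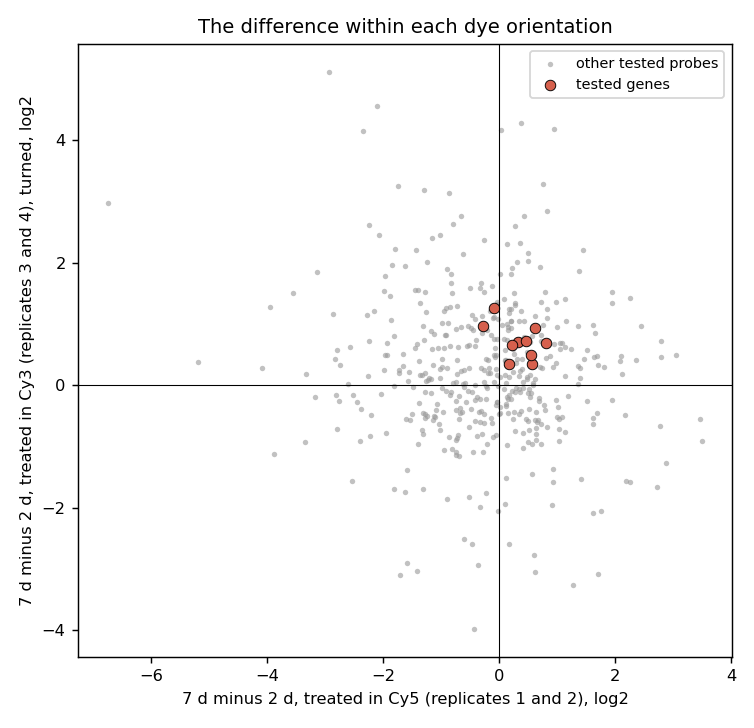
Difference of mean log2 ratio, 7 d minus 2 d, on the arrays with drug-fed flies in Cy5 (x axis) and on those with drug-fed flies in Cy3, turned (y axis), for 464 probes with a value on all 8 arrays. The cloud has no visible slope (r = -0.115), and 8 of the 10 tested genes lie above 0 on both axes.

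The smallest differences over all 8 arrays belonged, among the named genes, to *Alg-2*, *zfh2*, *eEF5* and *Miox*. *Alg-2* had -0.22, -0.79, 0.08 and 0.33 at 7 d against -0.04, -0.32 and -0.19 in replicates 1 to 3 of 2 d, a difference of 0.03 ± 0.52. *Miox* had 0.53, 0.01 and 1.13 in replicates 1, 2 and 4 of 7 d against 0.71, 0.20, 0.43 and 0.36 at 2 d, a difference of 0.13 ± 0.53. All *Miox* values were thus above 0 at both times when turned. *zfh2*, a zinc-finger and homeodomain transcription factor, was the single gene below 0 in the turned reading. It had -0.54, -0.64 and 0.56 in replicates 1, 2 and 4 of 7 d against -0.40, -0.91, 0.16 and 0.45 at 2 d, a difference of -0.03 ± 0.60. *Idgf6*, a chitinase-like growth factor listed with cuticle genes, had -0.14, 1.25 and -0.01 in replicates 2 to 4 of 7 d against -0.36, -0.75, 0.73 and 0.42 at 2 d, a difference of 0.36 ± 0.64. The 14 tested genes outside the naming rule had differences from 0.02 to 0.64 turned and from -0.91 to 0.21 as deposited, and none passed in limma.

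The targets of both drugs could not be compared between the times. Of 11 genes on the array for GABA synthesis, transport and reception, chloride channels, SV2-like proteins and other drug targets, 6 had a value on any of the 8 arrays and none had one at 2 d. *Gad1*, the enzyme that makes GABA, had log2 ratios of -0.06, 0.03 and 0.88 in replicates 1 to 3 of 7 d on one probe and 0.53 in replicate 4 on another. *Lcch3*, a subunit of ligand-gated chloride channels, was measured on 7 d replicate 4 alone, at 2.02, and *GluClalpha*, the glutamate-gated chloride channel, at 1.29 on the same array. *Gabat*, which breaks GABA down, had 0.65, *CG3168*, a transporter related to SV2, had -0.0010, and *Rop*, a regulator of vesicle fusion, had -0.49, all on that array alone. The values of replicates 3 and 4 given here are turned and have the opposite sign as deposited, so their direction depends on the reading. Single arrays carry no replicate error, and these values allow no comparison.

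Lists with no tested gene included synaptic vesicle release, glutathione and glucuronosyl transferases, fat body lipid and yolk genes, odorant-binding proteins, antioxidant enzymes, heat shock proteins, proteasome, muscle and clock genes. The labelled tissue could be checked only by which markers had a value. Photoreceptor markers were measured for 6 of 8 genes on the array at 7 d and 1 of 8 at 2 d, among them *Arr1*, *Arr2* and *trpl*. Values were also found at 7 d and 2 d for 1 and 0 of 2 neuronal, 3 and 1 of 5 glial, 3 and 1 of 8 fat body and 2 and 1 of 5 muscle markers. Gut and testis or accessory gland markers had a value for 1 of 5 and 1 of 3 at 7 d and for 0 of each at 2 d. At 7 d, 3 of the 6 photoreceptor, 2 of the 3 fat body and 1 of the 2 muscle markers had a value on more than 1 array, and none of the neuronal, glial, gut or testis markers did. At 2 d, the 1 photoreceptor, 1 glial, 1 fat body and 1 muscle marker measured each had a value on more than 1 array. The 7 d array with by far the most values was replicate 4, with 14042 spots against 1394 to 2730 on the others. No marker could be tested between the times, so a change in tissue makeup was not tested.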

How the data were processed

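The authors' deposited values are log2 ratios of 2 dye channels on spotted cDNA arrays. Per the series design text, slides were scanned on a GenePix 4000A, quantified in GenePix Pro 6.0 and ratio-normalized in Acuity 4.0, with filters on saturation, flags, spot regression and signal over noise (at least 3). No source used here gives the direction of the ratios, and intensities were not used, so signal over background is unknown. The array with the most values, 7 d replicate 4, held 14042 spots.

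Adjacent spots (27648, taken as 13824 probes) were averaged, each array was centred on its median, and replicates 3 and 4 were turned. Symbols came from the platform annotation, of which 7447 of 7558 were updated through RefSeq's gene table. For 7 d replicate 1 and 2 d replicate 4 the source names read untreated in both channels, so the treatment protocols were followed. The 7 d dye-swapped arrays have no number in the labels. Probes with a value on at least 3 of 4 arrays per group were fitted in R 4.3.3 with limma's lmFit and eBayes (version 3.58.1), two-sided, with Benjamini-Hochberg adjustment over all tested probes and a threshold of 0.05. The fit was tested on simulated data.

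Genes, lists and tests were chosen with earlier results of these data known. Among tested probes with 1 symbol, the text names the 10 of smallest p per direction, genes whose groups lay apart in both readings, up to 4 members of each list with at least 3 tested genes and all members of shorter lists, drug targets with a value, and 5 per direction on replicates 1 and 2. Alternatives covered the reading, centring, scaling, filters, duplicate spots, samples and covariates in the fit, variance estimate and each array left out.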

Additional observations from a re-analysis of the deposited data

Results flagged for a closer look

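Dixon's test compared each group of 4 arrays for a sample far from the other 3. It was run on 51 groups and marked 4, where chance gives about 2.55. The log2 ratio of *jdp* on 2 d replicate 2 was -0.98, while the other 2 d arrays lay between -0.11 and 0.01. *Lamp1*, which encodes a lysosomal membrane protein and lies outside the naming rule, was at -0.55 on the same array, with the others between -0.01 and 0.06. The number of spots with a value on 7 d replicate 4 was 14042, against 1394 to 2730 on the other 7 d arrays. The deposited median of 7 d replicate 3 was 0.74, and those of the other 7 d arrays were -0.67 to -0.55.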

How the results depend on the processing

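No probe passed at an adjusted p under 0.05 by limma in the fit of 8 arrays under any alternative run. On replicates 1 and 2 alone, 0 to 5 probes passed as each array was left out. The 5 came without 7 d replicate 2, and the lone 7 d array was there assumed to vary like the other group. With the replicate number as a block, 0 of 590 passed. The labels do not say that the numbers pair arrays of the 2 times. Deviations of same-numbered arrays correlated at 0.16 and 0.188, higher than the others at 0.0852 and 0.0933. The count of 42 genes above 0 became 14 as deposited, 21 as deposited without 7 d replicate 4, 11 as deposited and scaled and 13 as deposited with dye as covariate. With arrays centred on the tested genes it was 19 (turned) and 25 (deposited), but that centring fixes the genes' median at 0 on each array. Turned, it was 43 centred on probes measured on all 8 arrays, 40 centred on probes with 1 symbol and 36 without centring. The turned count ran from 34 to 43 as arrays were left out. The genes' median of 0.45 became -0.13, -0.0017, -0.19 and -0.14 under those deposited settings and -0.019 on centring on the genes, and ran from 0.25 to 0.63 as arrays were left out. Alternatives with the deposited reading combined, or with centring on the tested genes or on probes with 1 symbol, were added after seeing the data. The cause was not tested.

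As deposited, differences reversed to -0.52 (*BomT2*), -0.16 (*TrxT*), -0.27 (*RpL27*), -0.33 (*CG14989*), -0.12 (*Sesn*), -0.32 (*eIF3f1*), -0.13 (*CG10019*), -0.24 (*Ald1*), -0.67 (*jdp*), -0.40 (*ND-B17.2*), -0.50 (*rdgC*), -0.22 (*Eaat2*), -0.62 (*Doa*), -0.083 (*Mpcp2*), -0.46 (*Cyp28d1*), -0.23 (*Miox*), -0.42 (*eEF5*) and -0.30 (*Alg-2*), and -0.32 for the median of translation factors. Differences that kept their sign as deposited included 0.019 (*eIF4G1*), 0.23 (*Cyp313a1*), 0.11 (*Idgf6*), 0.40 (*CG31781*) and -0.10 (*zfh2*). Centring on the genes takes their common offset out of every array, so smaller differences change sign by construction, which does not test them. The differences that changed sign there were -0.064 (*ND-B17.2*), -0.025 (*Gpdh1*), -0.018 (*Eaat2*), -0.019 (*CG31781*), -0.11 (*Doa*), -0.14 (*Gapdh1*), -0.20 (*Mpcp2*), -0.22 (*Idgf6*), -0.28 (*Cyp28d1*), -0.27 (*Cyp313a1*), -0.15 (*eIF4G1*, translation factors), -0.47 (*mRpS34*), -0.17 (*Miox*), -0.49 (*eEF5*) and -0.46 (*Alg-2*). Without centring they were -0.021 (*Mpcp2*), -0.019 (*Miox*), -0.095 (*eEF5*) and -0.16 (*Alg-2*), with scaling -0.047 (*Alg-2*), with dye as covariate -0.20 (*mRpS34*), -0.038 (*Alg-2*) and 0.14 (*zfh2*), and centred on probes measured on all 8 arrays 0.15 (*zfh2*). As arrays were left out, ranges crossed 0 for *Gpdh1* (-0.015 to 0.88), *Idgf6* (-0.087 to 0.61), *Cyp28d1* (-0.053 to 0.68), *Cyp313a1* (-0.031 to 0.59), *eIF4G1* (-0.040 to 0.39), *mRpS34* (-0.19 to 0.86), *Miox* (-0.15 to 0.41), *eEF5* (-0.19 to 0.32), *Alg-2* (-0.13 to 0.25) and *zfh2* (-0.41 to 0.19). Ranges that stayed above 0 but spread widely were 0.14 to 0.98 (*rdgC*), 0.18 to 0.76 (*ND-B17.2*), 0.13 to 0.56 (*Doa*), 0.29 to 0.92 (*jdp*), 0.32 to 1.00 (*eIF3f1*), 0.32 to 0.81 (*Ald1*), 0.0025 to 0.63 (*Eaat2*), 0.22 to 0.84 (*CG31781*), 0.14 to 0.56 (*Gapdh1*), 0.14 to 0.41 (*Mpcp2*), 0.59 to 1.30 (*CG9445*), 0.67 to 1.31 (*Gbs-70E*), 0.61 to 1.30 (*CG14989*) and 0.38 to 0.73 (*CG10019*). The lowest came without 7 d replicate 3 or 4 or 2 d replicate 2, except for *Mpcp2* (7 d replicate 1) and *mRpS34* (2 d replicate 1).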
